A study of Mus musculus with 4 samples.

Results

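The cells described here are microglia of the stroke-injured mouse brain whose RNA carried a raised sum of 8 genes of DNA synthesis and little of 8 mitotic genes, and they are called the S phase class. There were 453 of them, 230 from females and 223 from males, among 6654 microglia and 9081 cells of both stroke pools that met the quality limits. A cell qualified with at least 500 genes, at least 1000 unique molecular identifiers (UMIs, one per captured RNA molecule) and at most 10% mitochondrial UMIs. It also needed a sum of P2ry12, Tmem119, Siglech, Fcrls, Olfml3 and Selplg of at least 30 per 10000 UMIs, a sum of Mcm3, Mcm5, Mcm6, Hells, Dtl, Cdc6, Ung and Chek1 (the S sum) of at least 6 per 10000, and a sum of Mki67, Top2a, Birc5, Ube2c, Prc1, Nusap1, Ccnb1 and Hmmr (the M sum) under 10 per 10000. The remaining stroke microglia were the non-cycling class, with both sums below these limits (2666 female and 2516 male cells), and the M phase class, with an M sum at or above its limit (562 and 457 cells).

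All mice had the genotype Tmem119-2A-CreERT2;Ai6, in which a Cre recombinase controlled by tamoxifen, made from the Tmem119 locus, switches on the green protein ZsGreen. On day 3 after ligation of the right middle cerebral artery (pMCAO, called stroke) or after sham surgery, live ZsGreen-positive cells of the operated hemisphere were sorted and run on the 10x Genomics 3' chemistry. Each sex gave 1 sham and 1 stroke library, 4 in all and each from a pool of 4 mice, so that no sex and treatment had a replicate and variation between mice was not measured. The sort was for ZsGreen, yet only 6654 of the 9081 stroke cells that met the quality limits were microglia by the rule, and Tmem119 is itself among the genes of the rule.

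A cell that commits to division passes a restriction point in G1, where cyclin D and cyclin E kinases inactivate the RB proteins and free the E2F transcription factors. E2F then drives genes that load the MCM helicase on replication origins, build nucleotides and copy DNA, while the mitotic genes, many under the DREAM and B-MYB complexes, follow in G2 and M. Microglia are long-lived cells that divide rarely in the healthy brain and proliferate after injury, in part through the CSF1 receptor.

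Promoters of genes that set the rule are printed first. Of the 8 genes of the S sum, 6 (75.0%) held an E2F motif and none held a CHR motif. The search covered the RefSeq promoter of GRCm38.p6, from 250 bases before to 50 after the start. The E2F motif was searched as TTTGGCGC, TTTCGCGC, TTTCCCGC and TTTGCCGC, and the CHR motif, the cell cycle homology region of mitotic promoters, as TTTGAA and TTCGAA, each on both strands. Of the 8 genes of the M sum, 0 held the E2F and 5 (62.5%) the CHR motif. Among the genes tested below, 9439 had a promoter in the table, of which 4.85% held the E2F and 16.8% the CHR motif. The 250 bases before the start are shown 5′ to 3′ on the gene's strand with the motif in capitals, where neighbouring capitals are overlapping matches. Mcm3, Ung and Chek1 held no E2F match in those 250 bases and are not printed, while the count of 6 covers the longer window. Mcm5 (promoter chr8:75109259-75109508, plus strand) and Mcm6 (chr1:128359706-128359955, minus strand) encode subunits of the MCM helicase. Cdc6 (chr11:98907901-98908150, plus strand) loads that helicase, Hells (chr19:38930740-38930989, plus strand) remodels chromatin, and Dtl (chr1:191575545-191575794, minus strand) directs the destruction of the loading factor CDT1 once replication has begun.
Mcm5: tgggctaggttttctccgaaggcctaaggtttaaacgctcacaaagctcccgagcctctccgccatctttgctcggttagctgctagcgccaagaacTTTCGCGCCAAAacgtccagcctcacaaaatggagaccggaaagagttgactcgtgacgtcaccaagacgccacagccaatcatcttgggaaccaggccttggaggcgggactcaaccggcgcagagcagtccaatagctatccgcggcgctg
Mcm6: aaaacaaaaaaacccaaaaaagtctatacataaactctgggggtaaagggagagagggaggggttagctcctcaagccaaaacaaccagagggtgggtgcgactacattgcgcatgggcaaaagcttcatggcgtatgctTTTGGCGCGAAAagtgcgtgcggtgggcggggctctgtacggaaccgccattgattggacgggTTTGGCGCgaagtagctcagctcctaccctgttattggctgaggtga
Cdc6: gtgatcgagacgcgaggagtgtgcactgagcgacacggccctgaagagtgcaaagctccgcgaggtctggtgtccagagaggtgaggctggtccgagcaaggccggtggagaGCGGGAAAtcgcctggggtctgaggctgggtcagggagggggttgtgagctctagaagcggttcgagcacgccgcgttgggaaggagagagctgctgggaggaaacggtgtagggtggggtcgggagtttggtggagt
Hells: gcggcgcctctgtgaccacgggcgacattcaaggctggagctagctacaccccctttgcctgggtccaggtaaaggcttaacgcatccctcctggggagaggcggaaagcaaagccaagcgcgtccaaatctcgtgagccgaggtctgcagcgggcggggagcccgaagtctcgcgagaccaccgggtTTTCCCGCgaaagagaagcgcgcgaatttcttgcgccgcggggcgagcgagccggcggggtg
Dtl: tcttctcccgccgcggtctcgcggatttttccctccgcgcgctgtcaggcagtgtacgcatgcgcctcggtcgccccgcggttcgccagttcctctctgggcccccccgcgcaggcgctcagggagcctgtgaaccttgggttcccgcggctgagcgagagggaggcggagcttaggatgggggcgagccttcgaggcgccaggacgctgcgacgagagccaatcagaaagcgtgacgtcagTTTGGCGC

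Outside the rule, Cdca7 (chr2:72475969-72476218, plus strand), a partner of Hells that is among the genes most raised in the S phase class over the M phase class, held the motif once. Its choice followed the match: Cdt1, Brca1 and Mcm10, searched in the same 250 bases, held none. Cdc20 (chr4:118437344-118437593, minus strand), the activator of the anaphase-promoting complex, held a CHR motif and is printed for contrast as a mitotic gene outside the rule, also chosen after its match was seen, while Cenpf, Plk1, Kif23 and Aspm held no CHR motif in those bases.
Cdca7: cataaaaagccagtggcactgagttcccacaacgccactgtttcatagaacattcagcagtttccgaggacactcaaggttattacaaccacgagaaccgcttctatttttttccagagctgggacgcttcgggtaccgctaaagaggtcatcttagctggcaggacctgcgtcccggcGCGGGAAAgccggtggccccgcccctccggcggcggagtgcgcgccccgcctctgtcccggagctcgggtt
Cdc20: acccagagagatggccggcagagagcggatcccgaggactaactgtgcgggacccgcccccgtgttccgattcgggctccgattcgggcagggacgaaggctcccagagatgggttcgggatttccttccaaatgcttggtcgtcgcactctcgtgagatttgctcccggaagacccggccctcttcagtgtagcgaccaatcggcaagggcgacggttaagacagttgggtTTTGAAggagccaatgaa
The E2F motif was present in 7 of the 17 matched genes of origin licensing and firing (41.2%) and in 10 of 28 of the replication fork (35.7%), against 4 of 44 genes of G2 and M (9.09%). It was present in 8 of 18 regulators of S phase entry (44.4%), 6 of 20 chromatin assembly genes, 4 of 22 checkpoint and repair genes (18.2%) and 1 of 22 genes of nucleotide synthesis (4.55%), the last near the share of all genes tested. For the CHR motif the counts were 6 of 17 origin, 4 of 28 fork and 35 of 44 G2 and M genes (79.5%). A match is only a run of letters in this window.

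The rule fixed the levels of its own 22 genes, which are given without a test. Mcm3, at chr1:20802968-20820312, was detected in 89.6% of female and 88.8% of male cells of the S phase class, against 24.0% and 23.7% of non-cycling cells. Cdc6 was detected in 31.7% and 33.2%, against 0.938% and 0.517%. The median cell of the class held UMIs of 5 of the 8 S genes in both pools, and all 8 were seen in 15 female and 22 male cells. A single S gene carried 13 and 8 cells, and 11 and 4 cells qualified on 1 UMI. Mki67, Top2a and Birc5 stood at 99.6, 99.3 and 30.9 CPM (UMIs per 1000000 UMIs of the class) in females and at 104, 123 and 43.8 CPM in males, and 72 cells of each pool had no UMI of any M gene. P2ry12 stood at 656 and 675 CPM, against 1247 and 1329 in non-cycling cells, and was detected in 93.5% and 97.3% of cells. The label of S phase microglia therefore rests on several replication genes in most cells and on few UMIs in some.

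**Figure D1:**
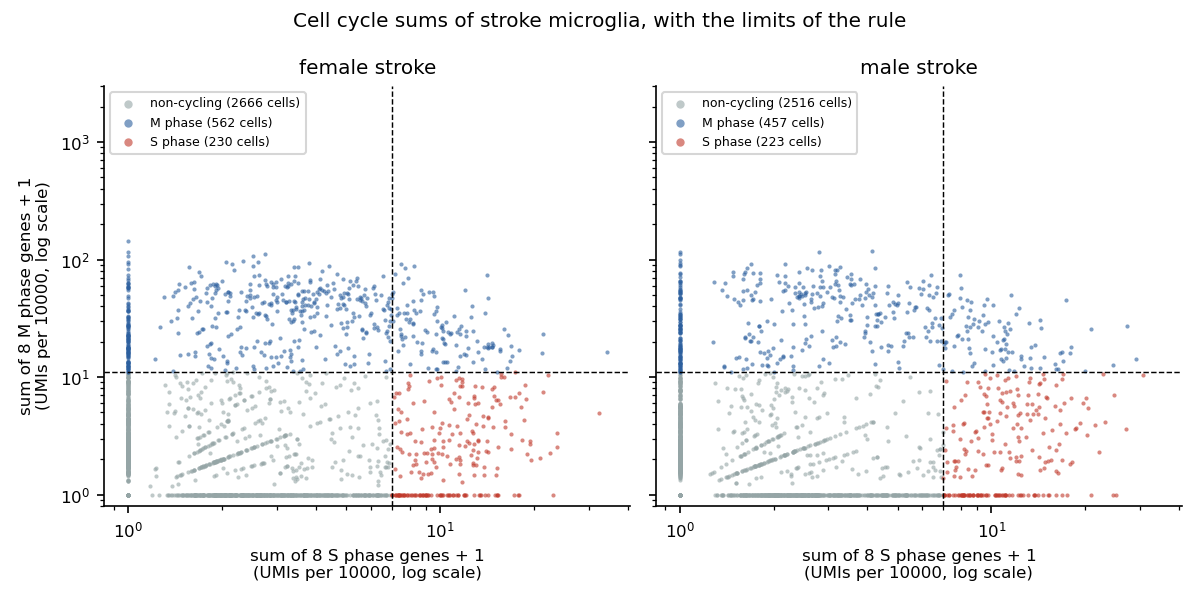
Each point is 1 stroke microglia, placed by its S sum (x axis) and M sum (y axis), both in UMIs per 10000 plus 1 on log scales, with the limits of the rule as dashed lines. The 230 and 223 cells of the S phase class lie right of the vertical and below the horizontal line, and 120 and 97 cells with an S sum at or above its limit lie above the horizontal line.

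The cells form a range with no gap at the limits. In the female pool 48 microglia had an S sum between 5 and 6 and 41 between 6 and 7, and in the male pool 42 and 31. Another 120 female and 97 male microglia passed the S limit but had an M sum of 10 or more. Cells that met the S and M limits but had a microglial sum under 30 numbered 45 and 20. The median S sum of the class was 9.90 and 9.93 per 10000 and its highest 31.3 and 29.6. Neutrophils, which do not divide, were read beside them. The 83 and 55 cells chosen by neutrophil markers held 40.7 (95% Poisson interval 20.3 to 72.9) and 41.3 (16.6 to 85.1) CPM of the S genes. Their median depths were 3108 and 2611 UMIs. Free RNA, the cells' own RNA and doublets were not told apart in them. The S phase class held 1048 and 1064 CPM and the non-cycling class 82.8 and 74.5, levels that the S limit itself sets apart. Of these neutrophils, 3 female (3.61%) and 0 male cells reached the S limit.

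The same limits were applied to all 4 pools. S phase cells were 43 of 3198 microglia (1.34%, exact 95% interval 0.975 to 1.81) in female sham and 54 of 4157 (1.30%, 0.977 to 1.69) in male sham. They were 230 of 3458 (6.65%, 5.84 to 7.53) in female stroke and 223 of 3196 (6.98%, 6.12 to 7.92) in male stroke. The intervals cover counting error only and say nothing of the spread between mice. With every cell thinned to 4000 UMIs the shares were 1.57% and 1.25% in the sham pools and 6.33% and 6.80% in the stroke pools, female first. Thinning left out cells that were too shallow and kept 2738 and 4153 of the sham and 2909 and 2734 of the stroke microglia. The male sham library held no barcode under 4198 UMIs, and with that minimum in every pool the shares were 1.23% and 1.30% in sham and 6.75% and 7.53% in stroke. At an S sum of 12 they were 0.250%, 0.265%, 1.97% and 2.25% in the same order. The stroke values chose the cells, so no test was made.

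**Figure D2:**
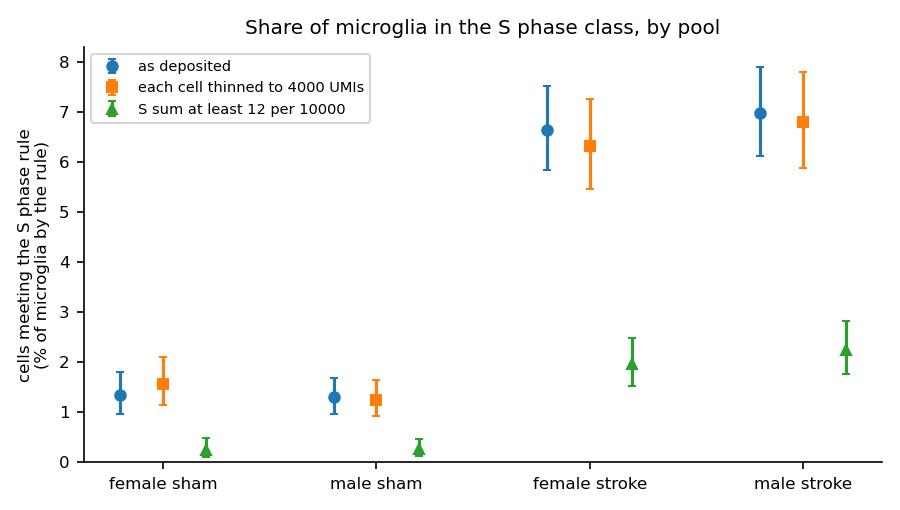
Points are the percentage of microglia in the S phase class in each of the 4 pools (x axis), as deposited, after thinning to 4000 UMIs and at an S sum of 12, with exact 95% intervals. Both stroke pools lie between 6.33% and 6.98% at the limit of the rule and both sham pools at or below 1.57%.

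S phase cells were deeper than non-cycling ones. Their median was 12187.5 UMIs and 3529 genes in the female and 12933 UMIs and 3712 genes in the male pool, against 7697.5 and 7715 UMIs in the non-cycling class and 16208 and 16066 in the M phase class. The median mitochondrial share was 4.997% and 4.72% in the S phase class and 4.83% and 4.42% in the non-cycling class. Between 4 and 11 barcodes were shared by any 2 libraries, 3 barcodes of the class occurred in another library, and no S phase cell was shared. No doublet caller was run, and 21 and 23 cells of the class exceeded 30000 UMIs.

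UMIs were summed over the cells of each class in each stroke pool. In 1 fit, edgeR's quasi-likelihood test compared the 6 sums, with the 22 rule genes left out. Genes that move with the rule genes still differ between the classes through the choice of cells. Calls in the replication lists are therefore a description and not separate support for S phase. The fit has 2 residual degrees of freedom, and a prior of 11 shared over the genes moderates the spread of each gene. Its p-values measure only how far the class differences disagree between these 2 pools. The classes of a pool come from the same mice. Of 12282 genes tested, 2920 were higher in the S phase than in the non-cycling class (23.8%) and 2494 lower (20.3%), at a Benjamini-Hochberg adjusted p of 0.05. Against the M phase class, 904 were higher (7.36%) and 1061 lower (8.64%). The 2 comparisons share the S phase sums, and these percentages of all genes are the background for the list counts below. Changes of at least 2-fold were called in 6.29% of genes upward and 3.82% downward from non-cycling, and in 1.03% and 2.91% from M phase cells. The median log2 change of all genes was -0.02 and 0.01. Against only the 1325 and 1293 non-cycling cells with no UMI of the S or M genes, 3482 of 12239 genes were higher and 3188 lower. Levels are in CPM, and where 2 values stand together the female stroke pool comes first.

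The regulators of entry into S phase were higher in the S phase class than in non-cycling microglia: 19 of 22 tested were called higher and 2 lower, with a median log2 change of 1.67. Ccne2, the cyclin E that drives CDK2 at the start of replication, stood at 93.2 and 103 in S phase, 3.41 and 2.10 in non-cycling and 40.95 and 46.1 in M phase cells. Both S phase values lie above all the others, with a log2 change of 5.17 (SE 0.16, edgeR adjusted p = 3.93e-11) from non-cycling and 1.18 (SE 0.12, edgeR adjusted p = 1.14e-05) from M phase cells. E2f1, an activating E2F, stood at 69.3 and 66.2, against 10.9 and 9.54 in non-cycling and 26.5 and 24.4 in M phase cells. Its log2 change from them was 2.76 (SE 0.10, edgeR adjusted p = 2.06e-10) and 1.42 (SE 0.10, edgeR adjusted p = 3.17e-07). Ccnd1, the cyclin D that senses growth factor signals, stood at 175 and 161, against 83.7 and 75.8 in non-cycling and 88.3 and 77.9 in M phase cells. It was thus near the non-cycling level again in M phase cells, and the change from them was 1.03 (SE 0.06, edgeR adjusted p = 4.85e-08). The repressive E2f7 and E2f8, which close the E2F programme, were higher than in non-cycling cells (log2 changes 4.89 and 4.15) and lower than in M phase cells (-1.34 and -0.64). With an S sum of at least 12 the second change of E2f7 was -0.27 and was not called. Cdk6 and E2f3, the least changed of the abundant members, were called higher than in non-cycling cells at log2 changes of 0.35 (edgeR adjusted p = 0.00294) and 0.92 (edgeR adjusted p = 5.81e-06). The 2 lower ones, named after their values were seen, were the cyclin Ccnd2 and the RB relative Rbl2 (p130), which holds E2F genes silent in resting cells. In the comparison with M phase cells 10 regulators were higher and 3 lower, with a median of 0.36.

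Genes that license and fire replication origins were the list with the largest median change, 3.13, and 21 of 23 were higher than in non-cycling cells and none lower. Cdt1, which brings the MCM helicase to the origin, stood at 66.9 and 70.1, against 9.15 and 6.41 in non-cycling and 19.9 and 20.1 in M phase cells. The change was 3.17 (SE 0.14, edgeR adjusted p = 9.80e-10) and 1.79 (SE 0.14, edgeR adjusted p = 6.00e-07). Its inhibitor geminin, Gmnn, was also high, at 116 and 100.4 against 11.6 and 10.5 in non-cycling and 77.7 and 83.3 in M phase cells. Mcm4 and Mcm7, helicase subunits outside the rule, changed by 3.51 (SE 0.10, edgeR adjusted p = 3.01e-11) and 3.36 (SE 0.08, edgeR adjusted p = 5.21e-12) from non-cycling cells. Against M phase cells Mcm4 was higher (log2 change 1.47, edgeR adjusted p = 6.96e-08). Orc1, the origin subunit that is degraded during S phase, stood at 13.6 and 7.63, against 1.01 and 0.699 in non-cycling and 2.37 and 3.68 in M phase cells. Mcm10 and Cdc45 turn the loaded helicase into a moving one. Mcm10 stood at 30.9 and 28.6, against 1.09 and 0.699 in non-cycling cells, and Cdc45 at 30.9 and 28.6, against 1.09 and 1.27, with changes of 5.06 and 4.67. Dbf4, the activator of the CDC7 kinase, was the exception against M phase cells, at 30.3 and 31.1 in S phase and 89.1 and 97.8 in M phase and lower (log2 change -1.60, edgeR adjusted p = 3.54e-08). The list had 11 higher and 1 lower in that comparison, with a median of 0.43.

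Of 33 genes of the replication fork, 32 were higher than in non-cycling cells and none lower, with a median of 2.54. Claspin (Clspn) and Timeless, which hold the fork together and report its stalling, changed by 4.07 (SE 0.13, edgeR adjusted p = 5.87e-11) and 3.90 (SE 0.13, edgeR adjusted p = 9.18e-11). Timeless stood at 60.2 and 60.2 in S phase and 22.02 and 20.8 in M phase cells, a change of 1.503 (edgeR adjusted p = 9.11e-07), whereas Clspn, at 67.8 and 59.9 in S phase and 57.4 and 55.7 in M phase cells, was not called between them (log2 change 0.18, edgeR adjusted p = 0.265). Pole2, a subunit of the leading strand polymerase, stood at 32.1 and 37.3, against 3.68 and 3.17 in non-cycling and 12.9 and 13.3 in M phase cells. Pclaf, a partner of the sliding clamp, ran the other way: 145 and 199 in S phase and 373 and 385 in M phase cells, lower (log2 change -1.14, edgeR adjusted p = 6.00e-07). The topoisomerase Top1, at 167 and 194 in S phase and 184 and 194 in non-cycling cells, was the 1 fork gene not called against non-cycling cells. Compared with M phase cells 17 fork genes were higher and 3 lower, with a median of 0.33.

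All 23 genes of nucleotide synthesis were called higher than in non-cycling cells, with a median of 1.54. Rrm2, the regulated subunit of ribonucleotide reductase, stood at 71.4 and 80.3, against 4.65 and 3.33 in non-cycling and 151 and 139 in M phase cells. Its S and M phase values lie above the non-cycling ones, and it was lower in S phase than in M phase cells (log2 change -0.93, edgeR adjusted p = 7.05e-06). Dut, which removes dUTP, and Ppat, the first enzyme of purine synthesis, were higher in S phase than in M phase cells, with log2 changes of 0.45 (edgeR adjusted p = 0.00155) and 1.25 (edgeR adjusted p = 3.00e-05). In that comparison 7 genes were higher and 4 lower.

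Chromatin assembly and DNA methylation followed the same pattern, with all 23 genes called higher than in non-cycling cells and a median of 1.84. Uhrf1, which brings the maintenance DNA methyltransferase to new DNA, stood at 108 and 108, against 5.31 and 4.85 in non-cycling and 59.4 and 61.5 in M phase cells, with changes of 4.43 (SE 0.10, edgeR adjusted p = 5.21e-12) and 0.84 (SE 0.08, edgeR adjusted p = 3.96e-06). The histone chaperone subunits Chaf1a and Chaf1b changed by 4.15 (SE 0.15, edgeR adjusted p = 1.15e-10) and 3.24 (SE 0.16, edgeR adjusted p = 3.72e-09) from non-cycling cells and by 0.81 and 0.99 from M phase cells. Asf1b, another chaperone, stood at 40.9 and 34.2 in S phase and 73.7 and 65.6 in M phase cells. H2afx, a histone variant of the damage response, stood at 19.98 and 20.1 in S phase, 15.9 and 14.7 in non-cycling and 264 and 263 in M phase cells, with the S phase values close to the non-cycling ones. The same list had 8 genes higher than in M phase cells and 10 lower.

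**Figure D3:**
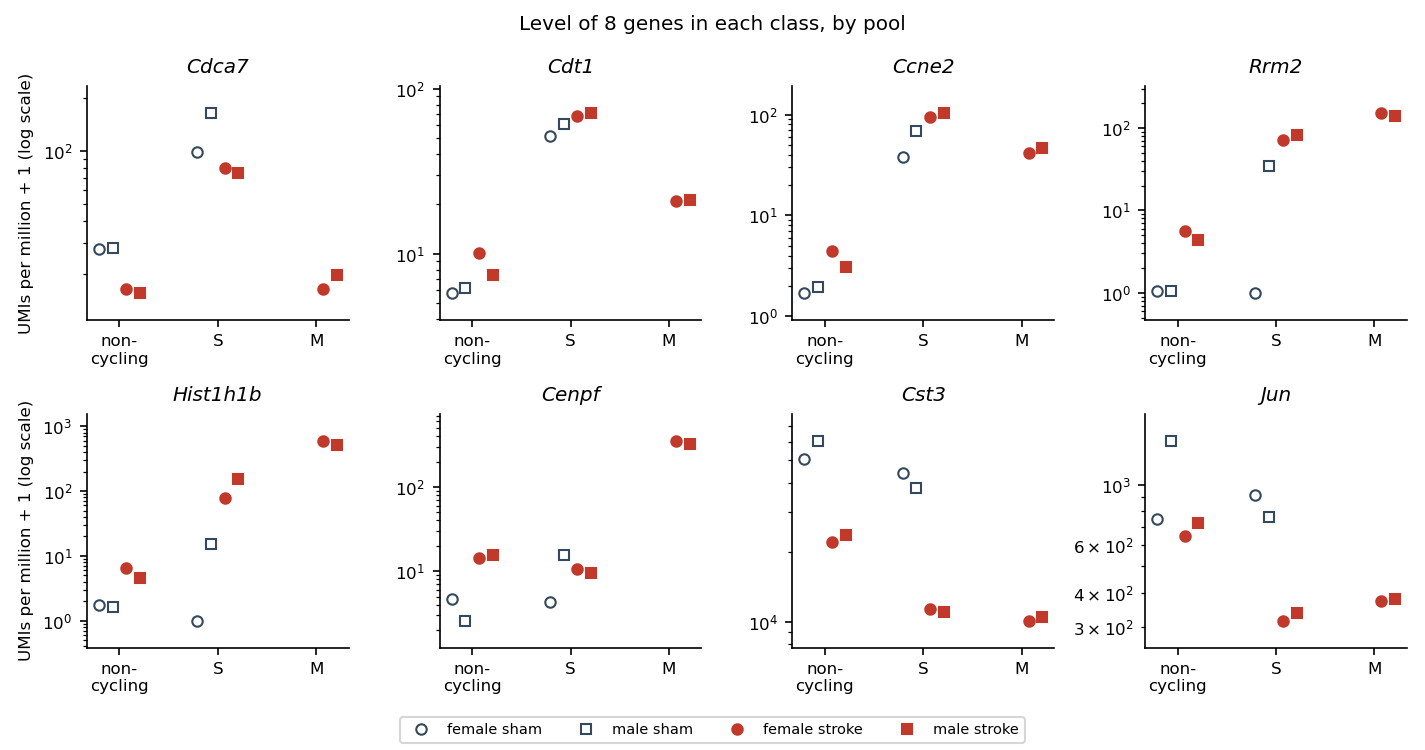
Levels of 8 genes in CPM plus 1 (y axes, log scale) in the non-cycling, S phase and M phase classes (x axes), filled symbols for the stroke and open symbols for the sham pools, whose 19 and 49 M phase cells are not drawn. In the stroke pools Cdca7, Cdt1 and Ccne2 stand highest in the S phase class, Rrm2, Hist1h1b and Cenpf in the M phase class, and Cst3 and Jun in the non-cycling class.

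Cdca7 (chr2:72476159-72486893) had, after Chil3, the largest rise over M phase cells among called genes of at least 20 CPM with the same sign in both pools. It stood at 79.0000 and 74.4 in S phase cells, 15.3 and 18.8 in M phase and 15.2 and 14.6 in non-cycling cells. The M phase values lie next to the non-cycling ones, with changes of 2.19 (SE 0.12, edgeR adjusted p = 1.81e-08) and 2.39 (SE 0.11, edgeR adjusted p = 1.58e-09). It was detected in 56.1% and 58.7% of S phase cells. The further genes of largest rise over M phase cells were Cdt1, Msh6, Timeless, Mcm4, Zmynd19, E2f1 and Pole2, with changes from 1.79 to 1.41, beside Chil3 and Arg1, which are described below. Zmynd19, a zinc finger gene, stood at 33.6 and 24.03, against 10.6 and 10.3 in M phase cells.

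Histone genes were mostly lower in the S phase class than in the M phase class. Both names come from the rule alone, and 120 female and 97 male cells of the M phase class also met the S limit. The phase of single cells was not tested. Replication-dependent histones package new DNA, and most of their transcripts end in a stem loop in place of a poly(A) tail, which the 3' chemistry primes on, so their counts are partial. Many of these genes are near-identical copies whose reads the counting could split. Of 57 tested, 51 were lower than in M phase cells and none higher, with a median of -2.35. Against non-cycling cells 25 were higher and 9 lower, with a median of 0.70. With an M sum under 5 in both classes the count against non-cycling cells was 5 higher and 9 lower, and that against M phase cells 0 higher and 52 lower. Over all 12286 genes tested at that limit, 2550 were higher and 2081 lower than in non-cycling cells. Against M phase cells 761 were higher and 1024 lower. Hist1h1b, a linker histone, stood at 78.7 and 154 in S phase, 5.51 and 3.62 in non-cycling and 600.0 and 509 in M phase cells, and changed by 4.70 (SE 0.27, edgeR adjusted p = 1.57e-08) and -2.24 (SE 0.18, edgeR adjusted p = 8.48e-07). It was seen in 56 of 230 and 59 of 223 S phase cells, and 5 cells held 48.9% and 60.9% of its UMIs. Hist1h1c, another linker histone, stood at 44.2 and 38.2 in S phase and 83.6 and 85.98 in non-cycling cells and was lower (log2 change -1.02, edgeR adjusted p = 7.23e-07).

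Genes of the replication checkpoint and of repair at the fork were higher than in non-cycling cells in 28 of 31 cases and lower in none, with a median of 2.89. Brca1, which protects stalled forks, was the gene of largest rise over all genes that met the naming rule, at 37.2 and 37.04 against 1.12 and 0.699 and a change of 5.36 (SE 0.19, edgeR adjusted p = 1.05e-10). Exo1, a nuclease of mismatch repair, changed by 5.28 (SE 0.21, edgeR adjusted p = 4.66e-10). Brca1 was not called between S and M phase cells (log2 change 0.24, edgeR adjusted p = 0.223). Msh6, the mismatch sensor that rides with the clamp, stood at 52.97 and 48.9, against 18.6 and 16.6 in M phase cells, and was higher (log2 change 1.54, edgeR adjusted p = 4.60e-07). Neil3, a glycosylase, and the Fanconi pair Fancd2 and Fanci were lower than in M phase cells, with log2 changes of -2.23, -1.40 and -1.47. With an S sum of at least 12 the last 2 were -0.83 and -0.97 and not called. In all, 11 of the list were higher and 3 lower in that comparison.

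Among 15 cohesin genes, 10 were higher and 2 lower than in non-cycling cells. Dscc1, which loads the clamp for cohesion, stood at 21.8 and 22.3, against 0.582 and 0.617 in non-cycling and 7.64 and 10.2 in M phase cells, and was higher than in both, by 5.21 and 1.32 on the log2 scale. Esco2, which acetylates cohesin during S phase, stood at 13.02 and 14.98, against 0.892 and 0.534 in non-cycling and 75.2 and 67.5 in M phase cells. The cohesin subunit Rad21 stood at 75.4 and 77.5, against 57.6 and 55.2 and 252 and 232 in the same order. Both were higher than in non-cycling and lower than in M phase cells.

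The genes of G2 and M outside the rule bear on how far along the cells were, although the M limit of the rule caps genes that move with these. Of 54 tested, 53 were lower than in M phase cells and none higher, with a median of -2.80. Against non-cycling cells 47 were higher and 3 lower, with a median of 1.74. Cenpf, a kinetochore protein, stood at 9.69 and 8.48 in S phase, 13.3 and 14.7 in non-cycling and 352 and 324 in M phase cells, so the S phase values lie below both. The non-cycling class is set by its limits and is not free of mitotic RNA: 68.5% and 70.2% of its cells held no M gene UMI. Plk1, the polo kinase of mitotic entry, stood at 3.33 and 4.52 in S phase and 125 and 102 in M phase cells. Kif23, a motor of cytokinesis, stood at 3.03 and 4.81 in S phase and 122 and 111 in M phase cells. The log2 changes from M phase cells were -5.21 (SE 0.11, edgeR adjusted p = 4.24e-12) for Cenpf, -4.83 for Plk1 and -4.87 for Kif23, so all 3 stood far below the M phase level. Others of the list were already present: Stmn1, a microtubule destabilizer, stood at 407 and 425, against 206 and 202 in non-cycling and 817 and 847 in M phase cells, and Ttk, the spindle checkpoint kinase, was higher than in non-cycling cells at a log2 change of 4.25 (SE 0.32, edgeR adjusted p = 2.05e-07). Aspm, Mxd3, Prr11, Pimreg, Ankle1, Parpbp and Cdc25c were the remaining genes of largest fall from M phase cells, between -5.36 and -4.39. None of these 7 was called against non-cycling cells.

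**Figure D4:**
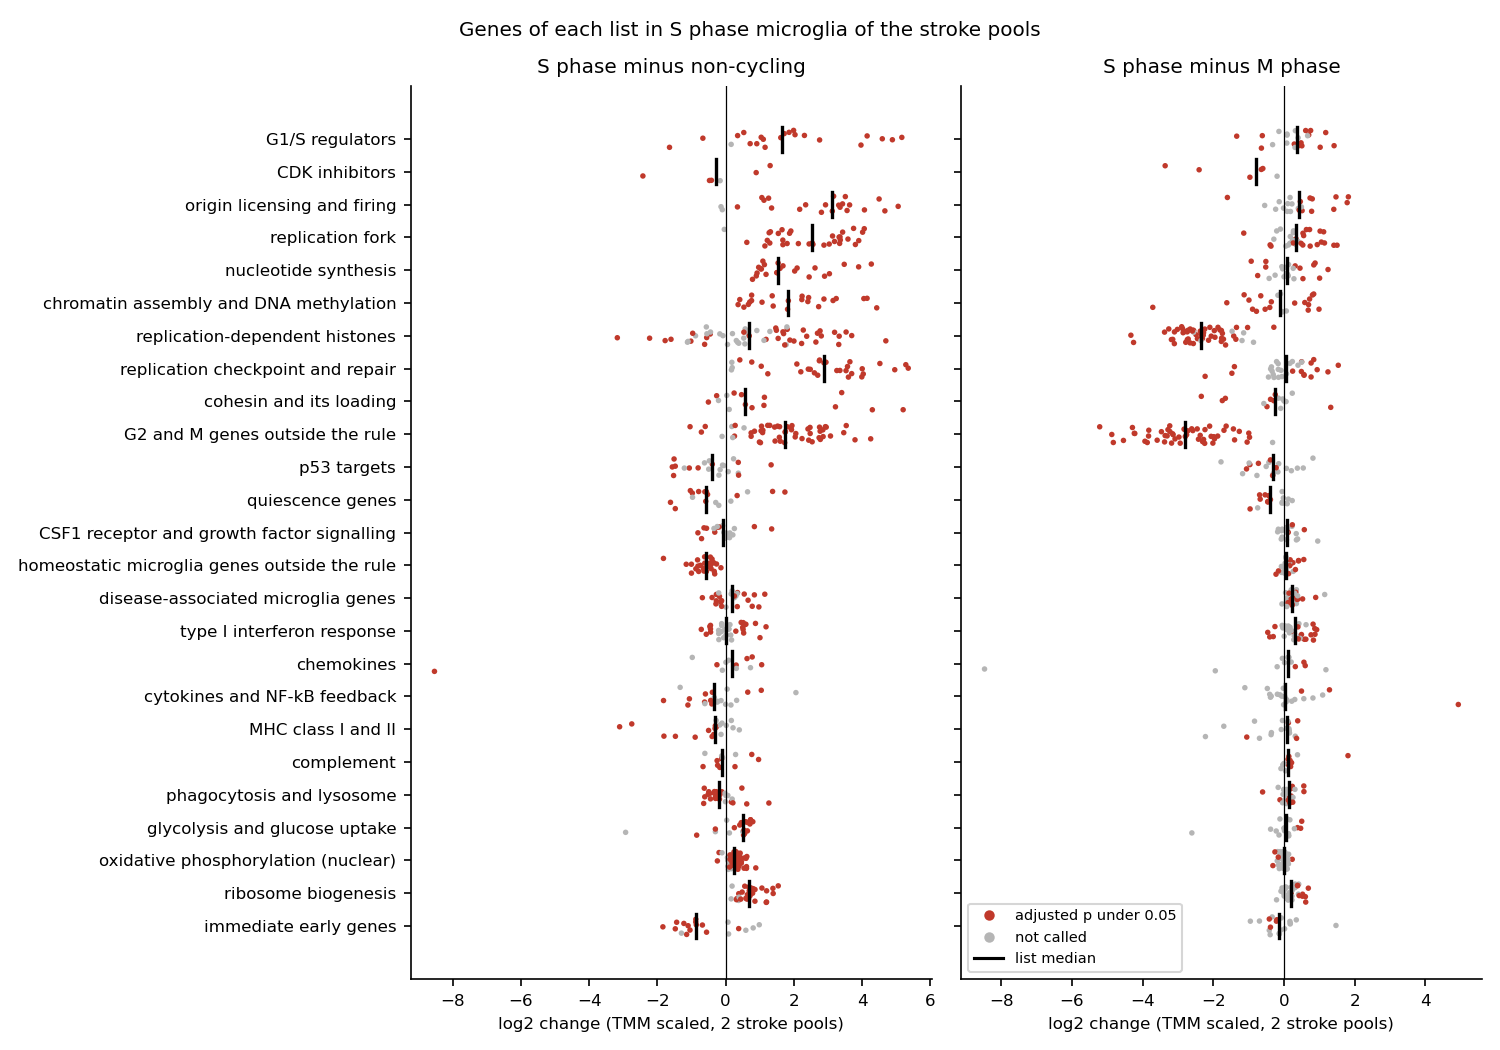
Each point is the log2 change of 1 gene in the S phase class from the non-cycling (left) or M phase class (right) of the 2 stroke pools, by gene list (rows), red where the adjusted p was under 0.05, with the list median as a bar. The replication lists lie at medians between 1.54 and 3.13 on the left, and histones and G2 and M genes at -2.35 and -2.80 on the right.

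Among the inhibitors of cyclin-dependent kinases 2 of 6 were higher and 3 lower than in non-cycling cells. Cdkn1a (p21), the main p53 target, stood at 62.96 and 76.3 in S phase, 75.96 and 82.4 in non-cycling and 125 and 148 in M phase cells. It was not called against non-cycling cells (log2 change -0.16, edgeR adjusted p = 0.105) and was lower than in M phase cells (log2 change -0.96, edgeR adjusted p = 7.33e-07). Cdkn1c (p57) stood at 2.72 and 0.566, against 8.65 and 9.04, and was lower (log2 change -2.42, edgeR adjusted p = 1.97e-04). Cdkn2c (p18) stood at 19.4 and 27.4 in S phase and 123 and 126 in M phase cells, and Cdkn2d (p19) at 12.1 and 8.77 and 109.8 and 105. All but Cdkn1c of the 6 inhibitors were lower than in M phase cells and none was higher. Of 21 p53 targets, 3 were higher and 7 lower than in non-cycling cells, against 23.8% and 20.3% of all genes. Ccng2, a cyclin of arrested cells, was among the 10 largest falls, at 13.9 and 18.7 against 60.1 and 63.95, with a change of -1.89 (SE 0.13, edgeR adjusted p = 1.14e-07).

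Genes of quiescence and of the immediate early response were more often lower than higher. Of 17 quiescence genes, 9 were lower and 3 higher than in non-cycling cells, with a median of -0.56. The antiproliferative Btg1 stood at 245 and 256, against 477 and 525, and Btg2 at 82.03 and 93.3, against 223 and 274. The translation inhibitor Pdcd4 stood at 18.5 and 20.9, against 60.1 and 62.97. In all 3 both S phase values lie below both non-cycling ones, with log2 changes of -0.97 (SE 0.05, edgeR adjusted p = 1.96e-09), -1.47 and -1.61. The 3 higher ones included Lin9 and Lin54, subunits of the core shared by the DREAM and the B-MYB assemblies, at log2 changes of 1.38 and 1.74. Immediate early genes, which are switched on within minutes by signals and also by tissue dissociation, were lower in 12 of 19 cases and higher in 1, with a median of -0.87. Jun stood at 315 and 335, against 647 and 719 in non-cycling and 371 and 378 in M phase cells, a change of -1.04 (SE 0.04, edgeR adjusted p = 7.64e-10). Fos stood at 52.4 and 44.95, against 133 and 134, a change of -1.43 (SE 0.12, edgeR adjusted p = 6.38e-07). Atf3 was the higher one (log2 change 0.39, edgeR adjusted p = 0.0149), and with a microglial sum of at least 60 its log2 change was -0.054 and was not called. Compared with M phase cells 4 of the list were lower and none higher. The part of dissociation in these levels was not tested.

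The microglial identity genes outside the rule were lower in the S phase class than in non-cycling microglia, 26 of 26, with a median of -0.59. The background for a lower call was 20.3%. Cst3, a secreted protease inhibitor and one of the most abundant microglial transcripts, stood at 11410.0 and 11080.0, against 22190.0 and 23690.0, a change of -0.999 (SE 0.03, edgeR adjusted p = 3.70e-11). Slc2a5, the fructose transporter, stood at 69.9 and 83.1, against 169 and 178, and Entpd1 (CD39), which degrades extracellular ATP, at 97.5 and 98.96, against 189 and 212. Their changes were -1.15 (SE 0.08, edgeR adjusted p = 5.69e-08) and -1.001 (SE 0.07, edgeR adjusted p = 6.67e-08). Bin1, an endocytosis gene, and Golm1 changed least, with log2 changes of -0.14 (edgeR adjusted p = 0.00924) and -0.26 (edgeR adjusted p = 1.70e-04). The rule asks for microglial genes in every class, and the median microglial sum was 61.8 and 65.9 per 10000 in S phase and 87.6 and 91.9 in non-cycling cells. Between cells with a sum from 30 to 80 in every class, 23 of the 26 genes were lower and none higher, with a median of -0.38, and Bin1 and Golm1 were not called. The background there was 1442 lower and 1999 higher of 11907 genes tested. In the M phase comparison 9 were higher and 2 lower, with a median of 0.07. Mertk, a receptor for apoptotic cells, stood at 145 and 171 in S phase and 105 and 109 in M phase cells and was higher (log2 change 0.56, edgeR adjusted p = 2.61e-05).

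Csf1r itself, the receptor on which microglial survival and division rest, is a member of the identity list and was named after its values were seen. It stood at 1513 and 1492 in S phase, 2213 and 2298 in non-cycling and 1569 and 1595 in M phase cells, a change of -0.56 (SE 0.03, edgeR adjusted p = 1.61e-08) from non-cycling cells. Of the 20 tested genes of CSF1 receptor and growth factor signalling, 2 were higher and 7 lower than in non-cycling cells, with a median of -0.07. Dusp6, a feedback phosphatase of the ERK pathway, stood at 104 and 108, against 177 and 202, a change of -0.81 (SE 0.06, edgeR adjusted p = 2.36e-07). Igf1, a growth factor, stood at 26.3 and 42.4, against 24.3 and 15.4, and was called higher (log2 change 0.85, edgeR adjusted p = 0.00741), with the male value above the female one. It was seen in 28 of 230 and 33 of 223 S phase cells, and was not called with an S sum of at least 12 (log2 change 0.063).

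Genes of the disease-associated state were divided, with 9 of 26 higher and 9 lower than in non-cycling cells and a median of 0.18. The shares of all genes were 23.8% higher and 20.3% lower. Spp1 (osteopontin) stood at 3599 and 5310.0, against 2549 and 2654, a change of 0.78 (SE 0.08, edgeR adjusted p = 2.64e-06). It was seen in 156 of 230 and 167 of 223 S phase cells, 5 of which held 44.3% and 31.6% of its UMIs. Lpl, a lipase, stood at 346 and 289.5, against 182 and 147, and Ch25h, which makes an oxysterol, at 231 and 338, against 128 and 131. Trem2, the lipid receptor of that state, was lower, at 1610.0 and 1567 against 2116 and 2145 (log2 change -0.40, edgeR adjusted p = 3.35e-06). Between cells with a microglial sum from 30 to 80, 2 of the list were higher and 12 lower, and Spp1 was not called (log2 change 0.12). Over all 11907 genes tested in that setting, 1999 were higher and 1442 lower. Against M phase cells 12 were higher and none lower, with a median of 0.23. Lgals3, a lectin, stood at 183 and 172, against 109 and 84.5 in M phase cells, and was higher (log2 change 0.90, edgeR adjusted p = 9.09e-04). At an S sum of 12 that change was -0.34 and was not called.

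The type I interferon list had 11 of 34 higher and 6 lower than in non-cycling cells, with a median of 0.03. Over all genes tested, 23.8% were called higher and 20.3% lower. Cxcl10, a chemokine induced by interferon, stood at 114 and 270.3, against 77.3 and 94.2, with a change of 1.19 (SE 0.25, edgeR adjusted p = 0.00194). It was seen in 42 and 51 S phase cells, 5 of which held 60.7% and 74.8% of its UMIs. With an S sum of at least 12 its log2 change was -0.024 and was not called, nor was it by DESeq2 (1.16). Between cells with a microglial sum from 30 to 80, 2 genes were higher and 8 lower, against 1999 and 1442 of all 11907 genes tested there. Against M phase cells 13 were higher and 4 lower, with a median of 0.32. Ifit3 stood at 66.6 and 104 in S phase, 69.7 and 101 in non-cycling and 50.4 and 40.96 in M phase cells, so the M phase values lie below both others. The change from M phase cells was 0.87 (edgeR adjusted p = 0.00381), and DESeq2 did not call it. Without cells holding 3 or more UMIs of monocyte markers the count against M phase cells was 5 higher and 5 lower. Of all 12103 genes tested in that setting, 901 were higher and 1079 lower.

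Chemokine and complement genes had calls in both directions, whereas cytokine, NF-kB and MHC genes were more often lower than higher. The background against non-cycling cells was 23.8% of all genes higher and 20.3% lower. Of 12 chemokines 4 were higher and 2 lower than in non-cycling cells. Ccl2, which attracts monocytes, stood at 407 and 461, against 221 and 202, a change of 1.06 (SE 0.11, edgeR adjusted p = 3.59e-06). Ccl4 stood at 541 and 595, against 394 and 282. Ccl8 was called lower, but both S phase values are 0 and the non-cycling ones 2.02 and 5.30, so it has no usable fold. Tnf stood at 32.1 and 40.1, against 19.5 and 16.2, and was 1 of 2 cytokine and NF-kB genes called higher, beside 8 called lower. Of 19 MHC genes, 11 were lower and none higher, with a median of -0.30. The class II genes H2-Aa and H2-Eb1 were among the 10 largest falls, with H2-Aa at 3.33 and 4.24 against 37.5 and 27.4 and H2-Eb1 at 5.75 and 3.39 against 34.8 and 25.9. Their log2 changes were -3.10 (SE 0.71, edgeR adjusted p = 0.00298) and -2.75 (SE 0.54, edgeR adjusted p = 0.00102). The 8 dendritic cell markers, of cells rich in class II, summed to 22.1 and 21.8 in S phase and 32.3 and 34.4 in non-cycling cells. Siglece led this sum in both classes and pools, and Xcr1, Ccr7 and Cd209a were at 0 in S phase cells of both pools. The part of dendritic cells in these falls was not tested. Without cells holding 3 or more monocyte UMIs the log2 changes of H2-Aa and H2-Eb1 were -0.84 and -0.56 and neither was called. With a microglial sum of at least 60 in every class neither was called, and 2 MHC genes were higher and 3 lower. Over all 11099 genes tested at that limit, 2063 were higher and 1573 lower. C5ar1, the receptor for the complement fragment C5a, stood at 229.7 and 208, against 136 and 126, and was higher (log2 change 0.77, edgeR adjusted p = 7.12e-08). Of 12 complement genes 3 were called higher and 5 lower.

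Of 28 genes of phagocytosis and the lysosome, 18 were lower and 5 higher than in non-cycling cells, with a median of -0.21. Hexa, a lysosomal hydrolase, stood at 562 and 609, against 888 and 952, and was lower (log2 change -0.62, edgeR adjusted p = 2.32e-08). Msr1, a scavenger receptor, stood at 99.6 and 105, against 52.7 and 34.6, and was higher (log2 change 1.27, edgeR adjusted p = 3.44e-06). Against M phase cells 13 were higher and 2 lower. Gas6, a ligand of MERTK, stood at 276 and 273 in S phase, 204 and 198 in non-cycling and 187 and 186 in M phase cells, and was higher than in both, by 0.48 and 0.57 on the log2 scale.

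Most genes of growth metabolism were higher. Of 31 genes of ribosome biogenesis 27 were higher than in non-cycling cells and none lower, with a median of 0.69. Nop56, of the box C/D particles that methylate ribosomal RNA, stood at 152 and 158, against 56.1 and 52.2 in non-cycling and 115 and 102 in M phase cells, with changes of 1.55 (SE 0.07, edgeR adjusted p = 1.03e-09) and 0.52 (SE 0.07, edgeR adjusted p = 1.27e-04). Of 20 genes of glycolysis 13 were higher and 2 lower, with a median of 0.52. Ldha, lactate dehydrogenase, stood at 514 and 452, against 284 and 281, a change of 0.80 (SE 0.05, edgeR adjusted p = 6.72e-08). Hk2, a hexokinase, was lower, at 358 and 367 against 428 and 481 (log2 change -0.30, edgeR adjusted p = 3.65e-04). Of 75 nuclear genes of oxidative phosphorylation 57 were higher and 2 lower, with a smaller median of 0.25. Cycs, cytochrome c, stood at 179.5 and 189, against 101 and 102, a change of 0.89 (SE 0.06, edgeR adjusted p = 4.36e-08). Between cells with a microglial sum from 30 to 80, 22 were higher and 3 lower, against 1999 and 1442 of all 11907 genes tested there. Against M phase cells 9 of the ribosome, 3 of the glycolysis and 1 of the oxidative genes were higher, and 0, 0 and 3 lower.

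The remaining genes of largest fall from non-cycling cells were Kdm5b, Enpp2, Hist3h2a, Kcnk12, Ramp1, Gm43378 and Il7r. Kdm5b, a histone H3 lysine demethylase, stood at 3.33 and 3.39, against 24.6 and 23.3 in non-cycling and 7.37 and 8.15 in M phase cells, a change of -2.80 (SE 0.21, edgeR adjusted p = 1.82e-07). Ramp1, a subunit of the CGRP receptor, stood at 29.1 and 29.4, against 118 and 108 in non-cycling and 81.6 and 88.7 in M phase cells, and was lower than in both, with log2 changes of -1.93 and -1.53. Il7r, the interleukin 7 receptor, stood at 6.96 and 11.9, against 37.5 and 34.6, a change of -1.89 (edgeR adjusted p = 6.31e-06). Enpp2 stood at 15.4 and 5.37, against 106 and 16.6. It is also a marker of choroid plexus and is itself among the 5 choroid plexus markers that were summed. Their sum, led by Ttr, was 357 and 93.9 in S phase and 996 and 251 in non-cycling cells. Foxj1 was at 0 in the S phase class. Because the sum includes Enpp2, the 2 move together partly by construction. The part of choroid plexus RNA in the fall of Enpp2 was not tested.

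Chil3 and Arg1, markers of monocyte-derived macrophages, were among the 10 largest rises over M phase cells. Chil3 stood at 46.0 in the female and 3.68 in the male S phase class, against 8.19 and 1.12 in M phase and 26.9 and 9.16 in non-cycling cells. Arg1 stood at 55.1 and 3.96, against 11.7 and 1.005 in M phase and 28.1 and 14.02 in non-cycling cells. The log2 changes from M phase cells, 2.36 (edgeR adjusted p = 4.22e-04) and 2.14 (edgeR adjusted p = 0.00661), come mostly from female UMIs, where 14 of 230 cells held Chil3 and 18 Arg1, and where 5 cells held 94.1% and 91.2% of the UMIs. In the male pool alone the log2 changes were 1.70 and 1.95, on 13 and 14 UMIs. Arg1 and Chil3 were 2 of the monocyte markers counted next. The 9 monocyte markers summed to 163 and 55.7 in S phase, 143 and 78.3 in non-cycling and 60.6 and 23.1 in M phase cells, and Vcan was at 0 in the female S phase class. Of S phase cells 22 female and 14 male held 3 or more of these UMIs. Without such cells in any class the log2 change of Chil3 from M phase cells was -0.47 and was not called, and that of Arg1 was 1.14 and was not called. The 7 neutrophil markers summed to 329 and 99.2 in S phase and 287 and 197 in non-cycling cells, with Ly6g at 0, and 1 female S phase cell held 68.9% of the S100a8 UMIs of its class. Il12b, called higher than in M phase cells, came from 22 UMIs of 1 male cell.

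Markers of other cell types differed widely in level in the S phase class. Those of choroid plexus and neutrophils, given above, were the highest in both pools. Next came the monocyte markers in the female and the oligodendrocyte markers in the male pool. Cells with 3 or more UMIs of the choroid plexus markers were 37.8% and 18.8% of the class, and with 3 or more of the neutrophil markers 15.2% and 23.3%. For the choroid plexus markers the shares were 27.3% and 12.2% of non-cycling and 45.7% and 27.1% of M phase cells. The classes differ in depth, and by this measure the S phase class lay above the non-cycling one, unlike the summed level. The neutrophil sum was led by S100a9 in the female and by Csf3r in the male pool, where S100a8 and S100a9 had 4 and 2 UMIs. Of non-cycling cells, 21.5% and 22.5% in stroke and 16.9% and 11.4% in sham also held 3 or more neutrophil UMIs. The 7 oligodendrocyte markers summed to 83.5 and 76.3, led by Cnp, with Pdgfra at 0, and to 75.3 and 74.2 in non-cycling cells. The 6 astrocyte markers summed to 52.1 and 54.0, led by Slc1a3, against 113 and 116 in non-cycling cells. The 8 T and NK cell markers summed to 0.908 and 0.283 CPM, with 6 and 7 of them at 0, and the 4 B cell markers summed to 32.4 and 23.5, all of it Cd79b. Neuron markers summed to 6.36 and 7.07. The neural progenitor markers summed to 69.9 and 47.2, against 22.9 and 15.5 in non-cycling cells, carried by Nes with Dcx and Dlx2 at 0. Of the 6 markers of border-associated macrophages, which summed to 55.4 and 23.5, Cd163 and Lyve1 were at 0. All 10 microglial markers were present. The ZsGreen transcript stood at 2003 and 1902, against 1608 and 1500.0 in non-cycling and 1844 and 1843 in M phase cells, and was higher than in non-cycling cells (log2 change 0.36, edgeR adjusted p = 1.88e-06).

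Within the S phase class the cells were ordered by their M sum, as a description and with no test, since the rule used that sum. The 3 groups were cells with no M gene UMI (72 and 72 cells), with an M sum above 0 and under 3 (92 and 78) and from 3 to under 10 (66 and 73). Their median depths differed, at 5433, 16210 and 14062 UMIs in the female and 7249.5, 17606 and 17770 in the male pool. Ccne2 stood at 21.0, 75.6 and 153 in the female and 35.6, 71.7 and 162 in the male pool. The sliding clamp Pcna, chosen after its values were seen, stood at 214, 321 and 519 and at 186, 308 and 501, and Rrm2 at 30.6, 38.1 and 139 and at 9.71, 46.2 and 144. Hist1h1b was low in the first 2 groups and stood at 183 and 347 in the last, and the cyclin A gene Ccna2, likewise chosen, went from 0 and 0 to 39.9 and 35.4. Cdca7 stood at 101, 71.9 and 79.0 and at 72.8, 67.6 and 81.7, and the helicase subunit Mcm2, chosen after its values were seen, at 91.8, 82.8 and 113 and at 93.9, 85.5 and 99.3. Both Cdca7 and Mcm2 stayed within a narrow range, but the lists they come from did not. The sum of the 23 origin genes stood at 965, 1046 and 1292 and at 772, 1025 and 1317, and that of the 23 chromatin assembly genes at 2881, 3620 and 4668 and at 2732, 3602 and 4672, so both were highest in the last group. Mcm4 went opposite ways in the pools, at 124, 102 and 94.98 in females and 58.3, 110.4 and 129 in males. The sum of the 26 identity genes was 40585, 29109 and 25395 CPM in the female and 43581, 29046 and 24501 in the male pool, against 48260 and 50926 in non-cycling cells. The identity sum and the M sum thus ran opposite ways in both pools. The first group was the shallowest, while the last was shallower than the middle one in females and of like depth in males.

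**Figure D5:**
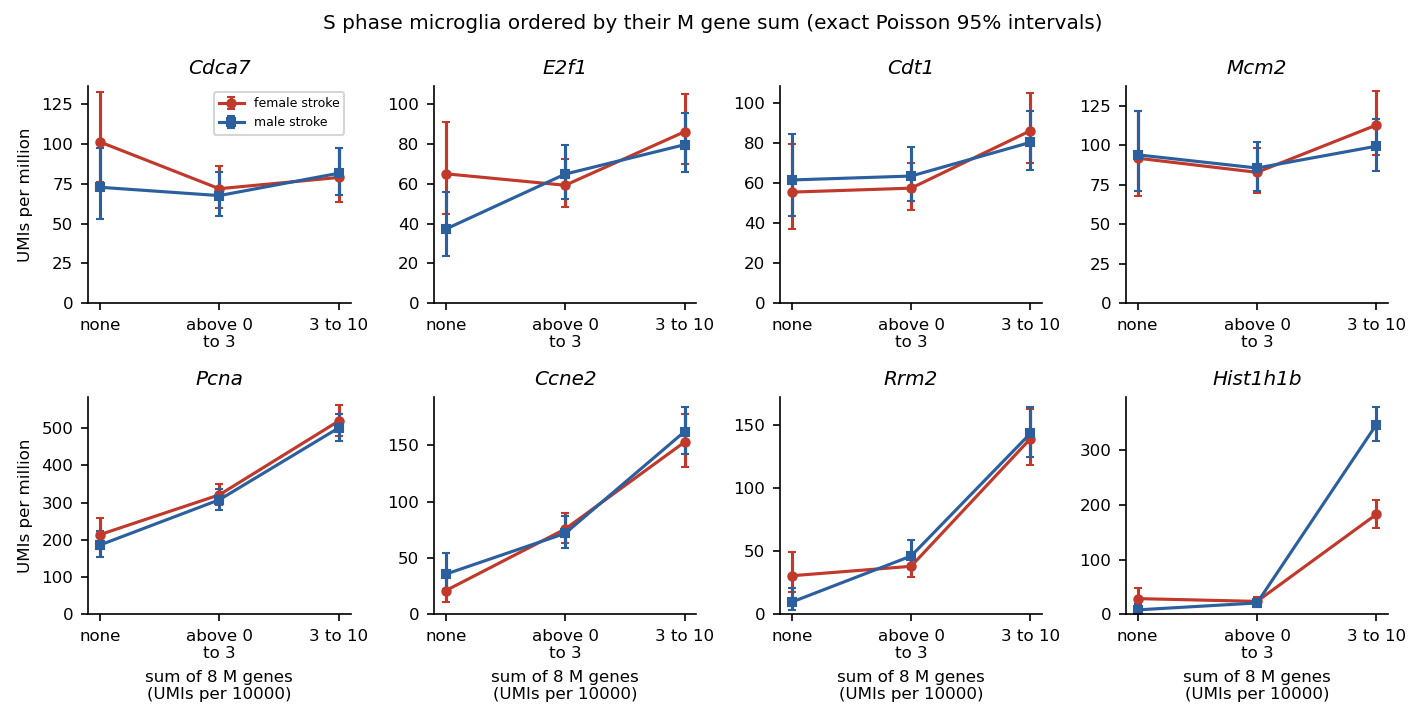
Levels of 8 genes (y axes, CPM, with exact Poisson 95% intervals) in the S phase class of each stroke pool, split by the M sum (x axes). Pcna, Ccne2 and Rrm2 are highest in the group from 3 to 10 in both pools, whereas Cdca7 and Mcm2 stay between 67.6 and 113.

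The sham pools had 43 and 54 cells in the class, too few in the female pool for the tests of stroke against sham, which needed 50, so values alone are given. The median sham cell of the class held UMIs of 3 of the 8 S genes, at median depths of 7007 and 6166.5 UMIs. Of the 33 fork genes, 32 were higher in S phase than in non-cycling cells in both sham pools, with median log2 differences of 2.00 and 2.27, against 2.44 and 2.66 in the stroke pools. These differences are between CPM with 0.5 counts added, and the medians of all genes were 0.15 and 0.07 in the sham pools. Of all 12281 tested genes counted by symbol, 7421 were higher in female sham, 6584 in male sham and 4533 in both. For origin licensing the medians were 2.83 and 3.23 in sham and 2.96 and 3.17 in stroke. Cdt1 stood at 50.6 and 60.3 in sham and 66.9 and 70.1 in stroke S phase cells, and Mcm4 at 108 and 113 and 103 and 109. Cdca7 stood at 97.9 and 164 in sham and 79.0000 and 74.4 in stroke S phase cells, with both sham values above both stroke values. Rrm2 stood at 0 and 33.8 and Hist1h1b at 0 and 14.5 in sham S phase cells, against 71.4 and 80.3 and 78.7 and 154 in stroke. No M gene UMI was seen in 39 of 43 and 37 of 54 sham cells of the class.

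The identity genes of the sham pools were split by pool. The median log2 difference was -0.11 in female sham and -0.45 in male sham, against -0.56 and -0.58 in the stroke pools. The summed level was 81968 and 66404 in sham S phase cells, against 90344 and 98584 in sham non-cycling cells. Cst3 stood at 43990.0 and 37770.0 in sham S phase cells and 50470.0 and 60700.0 in sham non-cycling cells, so all 4 pools had less in S phase. Jun went different ways in the sham pools, at 915 and 758 in S phase and 746 and 1450.0 in non-cycling cells. H2-Aa, low in stroke S phase cells, stood at 6.75 and 265 in sham S phase and 44.95 and 68.5 in sham non-cycling cells, high in the male pool alone. Spp1 stood at 30.4 and 188 in sham and 3599 and 5310.0 in stroke S phase cells, so its level in S phase cells of either sham pool is far below both stroke pools. Stroke and the pool cannot be told apart for these levels, since each pool is 1 library.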

How the data were processed

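Single-cell RNA-seq of sorted ZsGreen-positive cells from 4 pools, each of 4 mice, was analysed from the deposited filtered 10x matrices, which hold raw counts of UMIs for 32286 features per cell barcode. Alignment to mm10 was made by the authors with Cell Ranger, version 7.1.0 per the submitters' processing notes and 6.1.2 per the file headers; intron counting is not stated. The members and the 25 gene lists were chosen with earlier results of these data known.

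Cells and classes were taken by the limits in the report, without clustering and without a doublet caller; leaving out cells above 30000 UMIs stood in for it. The counts were summed per stroke pool and class. edgeR 4.0.16 (limma 3.58.1, R 4.3.3) fitted pool and class over 6 sums, with TMM scaling (factors 0.987 to 1.018), filterByExpr, the quasi-likelihood test and Benjamini-Hochberg adjustment at 0.05 over 12282 genes. Standard errors were taken as log2 change over the root of F. Class totals ran from 3303880 to 25789101 UMIs in the stroke pools. Nothing ties classes to single mice, so p-values measure only how far class differences disagree between 2 pools.

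Named genes were the 10 largest rises and 10 largest falls per comparison among called genes with the same sign in both pools and at least 20 CPM (UMIs per 1000000 of the class total). In each list they were up to 4 called members of largest change and up to 2 of at least 50 CPM with the smallest change. Shares have exact Clopper-Pearson and summed levels exact Poisson 95% intervals. Cells were thinned once to 4000 UMIs. Gene positions are from GENCODE vM21 (mm10) and promoters from RefSeq (GRCm38.p6).

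Alternatives were library totals in place of TMM, DESeq2 1.42.0, no filter on low counts, thinned cells, other limits of the rule, deep cells or cells with monocyte UMIs left out, no pool term, each pool alone, and non-cycling cells with no cell cycle UMI. A microglial sum of 30 to 80 in every class was added after seeing the data. The test was checked on simulated data. Tests of the S phase class of stroke against sham, and of class by treatment, were not run because female sham held 43 cells, under the 50 required. Other steps used Python 3.11.15 (matplotlib 3.10.9, pandas 2.3.3, scipy 1.17.1, numpy 2.4.6).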

Additional observations from a re-analysis of the deposited data

Results flagged for a closer look

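In 3 gene lists the median gene difference between S phase and non-cycling microglia was above 0 in both sham pools and below 0 in both stroke pools. The difference between treatments was not tested. The values are medians over the list of the log2 difference of CPM, S phase minus non-cycling, with 0.5 counts added. For p53 targets the medians were 0.26 in female sham and 0.24 in male sham, against -0.24 in female stroke and -0.18 in male stroke. For MHC genes they were 0.02 and 0.16 in sham, against -0.33 and -0.28 in stroke. For complement genes they were 0.16 and 0.41 in sham, against -0.09 and -0.11 in stroke. The summed levels do not all share these signs: in sham, MHC genes summed to 3640 CPM in S phase and 4141 in non-cycling female cells, p53 targets to 1119 and 1200 in male cells and complement genes to 25358 and 28035 in male cells. The medians of all genes were 0.15 and 0.07 in the sham and -1.97e-05 and -0.002 in the stroke pools. In female sham the MHC median thus lay below that of all genes and the complement median close to it. The added 0.5 counts weigh more in small sums. The S phase sums held 296189 and 414507 UMIs in sham, from 43 and 54 cells, and 3303880 and 3536881 in stroke. The part of the added counts in these signs was not tested.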

How the results depend on the processing

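The class sums rest on 453 cells of 2 libraries with no replicate, no doublets were called, and the S limit was met on 1 UMI by 11 female and 4 male cells. With shallower cells left out and the rest thinned to 4000 UMIs, the genes higher and lower than in non-cycling cells numbered 1460 and 1142. Those higher and lower than in M phase cells numbered 241 and 430. This thinning moved the share of higher calls against M phase cells from 46.0% to 35.9%. DESeq2 called 1254 lower than in non-cycling cells, and 369 higher and 607 lower than in M phase cells. An S sum of at least 12 gave 1941 higher and 1378 lower than in non-cycling cells and 542 higher than in M phase cells, and a microglial sum of at least 60 gave 1573 lower than in non-cycling cells. A microglial sum from 30 to 80 in every class gave 1442. The cause of these lower counts was not tested. DESeq2 used the same sums, while the other settings named here hold fewer UMIs or cells. The shares of S phase cells moved to 0.250% and 0.265% in the sham and 1.97% and 2.25% in the stroke pools (females first) at an S sum of 12, to 4.81% and 5.31% in the stroke pools at a microglial sum of 60, and to 5.35% and 5.60% with an M sum under 5.

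Of 1856 values recomputed for 133 genes named against non-cycling cells, 1726 stayed the same, 122 lost the call and 8 turned. Of 1415 for 110 genes named against M phase cells, 1220, 186 and 9 did so. Staying the same meant direction and side of the threshold, except with each pool alone, where no p-value exists and only direction was judged. The same sign in both pools was also a condition for naming the genes of largest rise or fall. Those that turned against M phase cells were Arg1 at -0.30, C3ar1 at -0.041, Chil3 at -2.14, Lgals3 at -0.34 and Lyz2 at -0.019 with an S sum of at least 12, C3ar1 at -0.049 with a microglial sum of 60, Chil3 at -0.47 without cells holding monocyte UMIs, Ndufs3 at -0.068 when thinned, and Il12b, whose change ran from -0.57 without the male pool to 6.83 without the female pool. Against non-cycling cells they were Atf3 at -0.054 and Itgam at 0.066 with a microglial sum of 60, Cdkn2d at 0.13 when thinned, Cxcl10 at -0.024 and Tubb4b at -0.039 with an S sum of 12, Hist1h1e at 0.15 and Tubb4b at -0.042 with a microglial sum of 30 to 80, and Hist1h2bc at 0.22 against cells with no cell cycle UMI. No paired analysis was possible because no label pairs mice across the pools; the classes of a pool share a pool term instead.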
